A study of Mus musculus with 8 samples.

Results

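Purinergic signalling in the newborn cochlea was followed through 10 genes for ATP release, ATP receptors, ectonucleotidases and the chloride channel that answers to them: Ano1, P2ry1, P2ry2, P2ry4, P2rx2, P2rx3, P2rx7, Panx1, Entpd1 and Entpd3. They were chosen by name for their role, with earlier results of these data known, and each of the 10 had a row among the 41079 genes of the count tables. RNA of the organ of Corti, micro-dissected from mice on the day of birth (P0), was sequenced in 4 wildtype libraries and in 4 libraries labelled Prox1 knockout, in which Cre from Emx2-cre acts on a floxed Prox1 allele. The labels do not say which cells Emx2-cre reaches in this tissue, whether wildtype mice carried Cre or the floxed allele, or whether each library came from its own animal, so the p-values rest on a spread between samples that may be technical.

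In the greater epithelial ridge, the transient epithelium medial to the inner hair cells, supporting cells release ATP before the onset of hearing, a release largely attributed to connexin hemichannels. ATP and its product ADP act on metabotropic P2Y receptors of the same cells, which couple through Gq to calcium release from stores. Calcium opens the chloride channel encoded by Ano1, chloride and then potassium leave the cell, and the potassium depolarizes nearby hair cells. Ionotropic P2X receptors are ATP-gated cation channels, found in the cochlea on hair cells, neurons and other cells, and ectonucleotidases end the signal by hydrolysing extracellular nucleotides.

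The libraries held between 29908965 and 42318233 counts, and each library labelled knockout was less deep than each wildtype library. Prox1, the targeted gene, was higher in the knockout-labelled libraries, with 133 to 147 counts-per-million (CPM) against 106 to 115 CPM in wildtype, which goes against the label for the whole transcript, so directions below are those of the libraries as labelled. The log2 fold change of Prox1 was 0.33 ± 0.05 (SE; edgeR, Benjamini-Hochberg adjusted p = 0.0298). With 1 library left out, Prox1 passed 0.05 in 1 of 8 fits (edgeR adjusted p between 0.0326 and 0.180). Markers of the named tissue were present in every library: the 10 supporting cell markers of the organ of Corti summed to between 1012 and 1131 CPM, the 10 hair cell markers to between 524 and 639 CPM, and the 14 markers of the greater epithelial ridge to between 9987 and 11792 CPM. By group, the ridge sum was 10378 to 11792 CPM in wildtype and 9987 to 11305 CPM with the knockout label, which overlap. Of these 14 genes, 13 had a log2 fold change below 0, with a median of -0.14 against 1.23e-06 for all tested genes. By edgeR, 0 passed after adjustment and 3 had an unadjusted p under 0.05, against 7.55% of all tested genes. Tecta had the highest level of them, at 5739 and 5684 CPM. Marker genes of other cells were counted too. The 10 marker genes of stria vascularis and melanocytes summed to 97.2 to 172 CPM in wildtype against 85.4 to 91.7 CPM with the knockout label, and 8 mesenchymal genes to 6678 to 7910 CPM against 5616 to 6609 CPM. Neither sum overlapped between the groups, but in each this depends on the gene with the highest level. Kit had 59.7 to 62.5 CPM in wildtype against 50.4 to 52.8 CPM with the knockout label in the first sum. In the second, Col1a2 had 2460 to 3074 CPM against 1990 to 2449 CPM. Without Kit or Col1a2, the sum that holds it overlaps between the groups. The part of these cell types, and of the greater epithelial ridge, in the results below was not tested. In such bulk tissue, fewer cells of a type and less RNA per cell cannot be told apart.

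Of the 10 genes, 9 passed the filter on low counts, and none of the 9 passed the test for a difference between the groups. The edgeR quasi-likelihood test, with p-values adjusted by Benjamini-Hochberg across the whole table, put 0 of 9 under 0.05, where 0.0923% of the 20581 tested genes did. DESeq2 and limma-voom also called 0 of them. At an unadjusted p under 0.05 there were 2, Ano1 and P2ry2, against 7.55% of all tested genes. In 0 of 9 genes did the 4 libraries of one group all lie above those of the other, which happened in 3.69% of all tested genes. Without regard to sign, the median log2 fold change was 0.12 for the 9 genes and 0.095 for all tested genes. It was 0.067 for the 13047 tested genes with a mean of at least 5 CPM, a class that holds all 9. With sign, the median was -0.08 for the 9 genes and 1.23e-06 for all tested genes, with 3 of the 9 values above 0 and 6 below. The bound farthest from 0 among the 9 intervals (95%, per gene) was that of P2ry2, at -0.65 on the log2 scale, a 1.57-fold difference, and the widest interval was that of Entpd3, from -0.47 to 0.37.

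**Figure D1:**
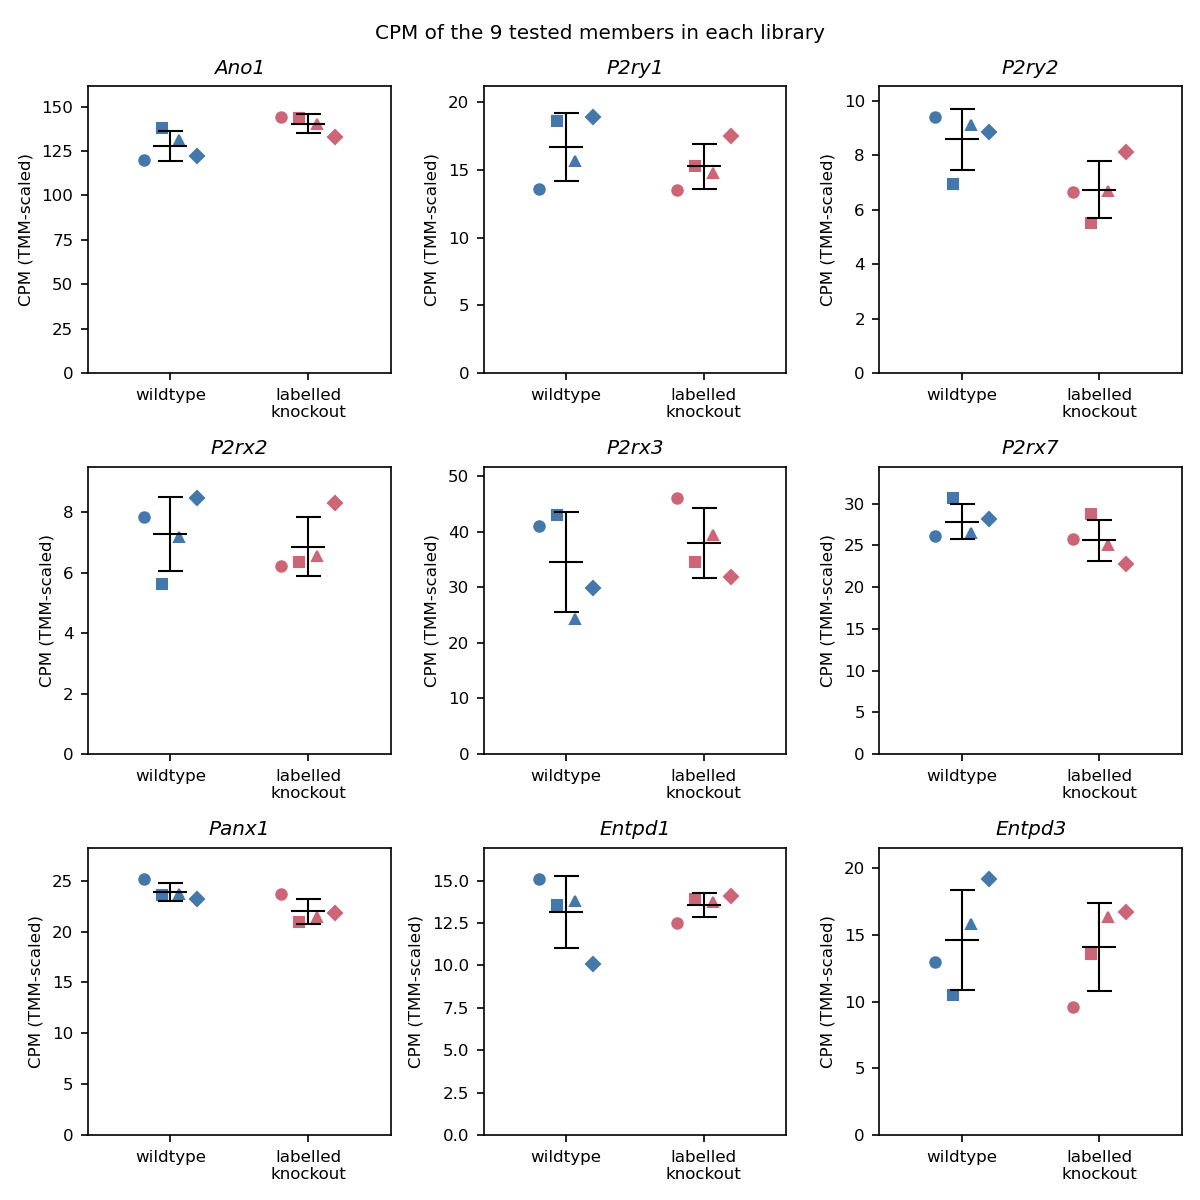
CPM (scaled by trimmed mean of M values, TMM; y axis from 0) of the 9 tested genes in the 4 wildtype (blue) and 4 libraries labelled knockout (red). Circle, square, triangle and diamond mark libraries 1 to 4 of each group, and bars give the mean and SD. In every panel the values of both groups overlap.

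Ano1, the calcium-activated chloride channel, had the highest level of the 10 genes per kilobase of exon. Its values were 119.9, 138, 131 and 122 CPM in wildtype libraries 1 to 4 and 144, 144, 140.3 and 133 CPM in libraries 1 to 4 labelled knockout. Of the latter, 3 lay above every wildtype library, and library 4 lay below wildtype library 2. Wildtype averaged 128 ± 8.18 CPM and the other group 140.3 ± 5.30 CPM (mean ± SD, n = 4 each), and the log2 fold change was 0.13 ± 0.06 (SE; 95% interval 0.01 to 0.25). It did not pass (edgeR: unadjusted p = 0.0321, Benjamini-Hochberg adjusted p = 0.647). In the authors' deposited DESeq2 table the log2 fold change of Ano1 was 0.13 with an SE of 0.07 and an adjusted p of 0.671. The share of counts on long noncoding RNAs, a property of the whole library, ran from 1.67 to 2.61% in wildtype and from 2.03 to 2.97% in the knockout-labelled libraries. Library 4 had both the lowest Ano1 and the lowest such share among those labelled knockout, and wildtype library 2 the highest of both in wildtype. Other libraries did not keep this order. Wildtype library 3, with the lowest share, had the second highest Ano1 of its group. Wildtype library 4, with the second highest share, had the second lowest Ano1. Knockout-labelled library 3, with the highest share of its group, had the second lowest Ano1 there. The part of this share in the Ano1 values was not tested.

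Other anoctamins, a family of chloride channels and lipid scramblases, were measured for comparison. Per kilobase of exon, Ano1 made up 38.2 to 42.8% of the family's 10 members in wildtype and 40.1 to 43.7% in the knockout-labelled libraries. Ano6, a scramblase found in many tissues, came next with 24.9 to 27.0% and 23.1 to 26.4%. Of 9 tested anoctamins, 0 passed over all genes and 7 had a log2 fold change above 0, with Ano6 at -0.06 ± 0.05. Over the 8 libraries, the 5 genes whose centred log2 CPM profile lay closest to that of Ano1, by root mean square difference, were Phip (0.026), Alkbh8 (0.031), Dedd (0.034), Exoc1 (0.034) and Itga8 (0.035). Among 17052 genes ranked in this way, the closest of the other purinergic genes was P2rx7, at rank 6796 (0.15). P2ry1, the receptor placed upstream of Ano1, came at rank 11915 (0.22) and Entpd3 at rank 15962 (0.38). Ano1 varied little, with a coefficient of variation of 6.40% in wildtype and 3.78% with the knockout label. The difference also grows with the spread of the other gene. A far rank therefore does not by itself show that a gene changed apart from Ano1.

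The P2Y receptors that open the pathway lay below Ano1 in level per kilobase. P2ry1, a Gq-coupled receptor for ADP, had 13.6, 18.6, 15.7 and 18.9 CPM in wildtype libraries 1 to 4 and 13.5, 15.3, 14.8 and 17.5 CPM in those labelled knockout. Library 1 was the lowest and library 4 the highest in both groups, although the numbers pair no samples in the labels. The log2 fold change was -0.13 ± 0.12 (SE; 95% interval -0.38 to 0.12). With 1 library left out it ran from -0.22 (without wildtype library 1) to -0.064 (without wildtype library 4), and without the wildtype libraries 1 and 3 it was -0.30. P2ry1 passed in none of these fits.

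P2ry2, a receptor for ATP and UTP, showed the fold change farthest from 0 among the 9 tested genes. Wildtype libraries 1 to 4 held 9.41, 6.95, 9.10 and 8.87 CPM, and libraries 1 to 4 labelled knockout held 6.65, 5.53, 6.67 and 8.10 CPM. Of the knockout-labelled libraries, 3 lay below every wildtype library, and library 4 lay above wildtype library 2. Wildtype averaged 8.59 ± 1.11 CPM and the other group 6.74 ± 1.05 CPM (mean ± SD, n = 4 each), and the log2 fold change was -0.35 ± 0.14 (SE; 95% interval -0.65 to -0.05). It did not pass, with an unadjusted p of 0.0265 and an adjusted p of 0.644 (edgeR, Benjamini-Hochberg). In the authors' deposited DESeq2 table the adjusted p of P2ry2 was 0.458. P2ry2 rests on 186 to 364 counts per library.

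P2ry4, a receptor for UTP and in rodents also for ATP, was at the limit of detection. It had 2, 1, 0 and 1 counts in wildtype libraries 1 to 4 and 1, 1, 2 and 0 counts in those labelled knockout, 4 in each group. No library reached 3 counts, the upper limit that a count of 0 allows, which at the depth of these libraries is 0.0691 to 0.102 CPM. P2ry4 was left out by the filter, and no fold change is given. The limit of 3 counts holds for a library with 0 counts, and libraries with 1 or 2 counts allow higher values. These limits cover counting error only.

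Among all 9 P2Y receptors on a per-kilobase scale, P2ry1 took 36.9 to 45.9% of the family in wildtype and 40.3 to 44.9% in the knockout-labelled libraries, and P2ry2 took 18.6 to 27.9% and 17.7 to 22.4%. The groups overlapped in both shares. P2ry12 and P2ry13, receptors of macrophages and microglia, averaged 10.7 and 10.1% over the 8 libraries, and P2ry6, a receptor for UDP, 9.97%. Of 7 tested P2Y receptors, 0 passed over all genes, with 2 above 0 and 5 below.

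Of the 3 ATP-gated channel genes in the set, P2rx3 had the highest level per kilobase and the widest spread. P2rx3, known for its place on sensory neurons, had 41.0, 43.0, 24.2 and 29.8 CPM in wildtype libraries 1 to 4 and 46.1, 34.6, 39.3 and 31.8 CPM in those labelled knockout. Wildtype libraries 3 and 4 were low, and the groups overlapped. Its coefficient of variation in wildtype was 26.1%, where counting error alone gives 2.75% and the median of the 13047 tested genes with at least 5 CPM was 7.19%. The log2 fold change was 0.13 ± 0.17 (SE; 95% interval -0.23 to 0.50), and with 1 library left out it ran from -0.0025 (without wildtype library 3) to 0.26 (without wildtype library 2).

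Summed CPM of the 12 neuron markers stood at 464, 495, 360 and 435 in wildtype libraries 1 to 4 and at 477, 374, 431 and 415 in those labelled knockout. Wildtype library 3 was the lowest of the 8 and wildtype library 2 the highest in this sum. P2rx3 was also lowest in wildtype library 3 and, within wildtype, highest in library 2. Among the knockout-labelled libraries, library 1 was highest in both, while the lowest was library 4 for P2rx3 and library 2 for the neuron sum. Syt1, the marker with the highest level, did not follow the sum in wildtype, with 149, 135, 163 and 163 CPM in libraries 1 to 4. Nefl, the next in level, had 97.7, 118, 67.9 and 94.8 CPM there. The range of the sum therefore depends on the markers it holds. The part of the neuron content in the P2rx3 values was not tested.

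**Figure D2:**
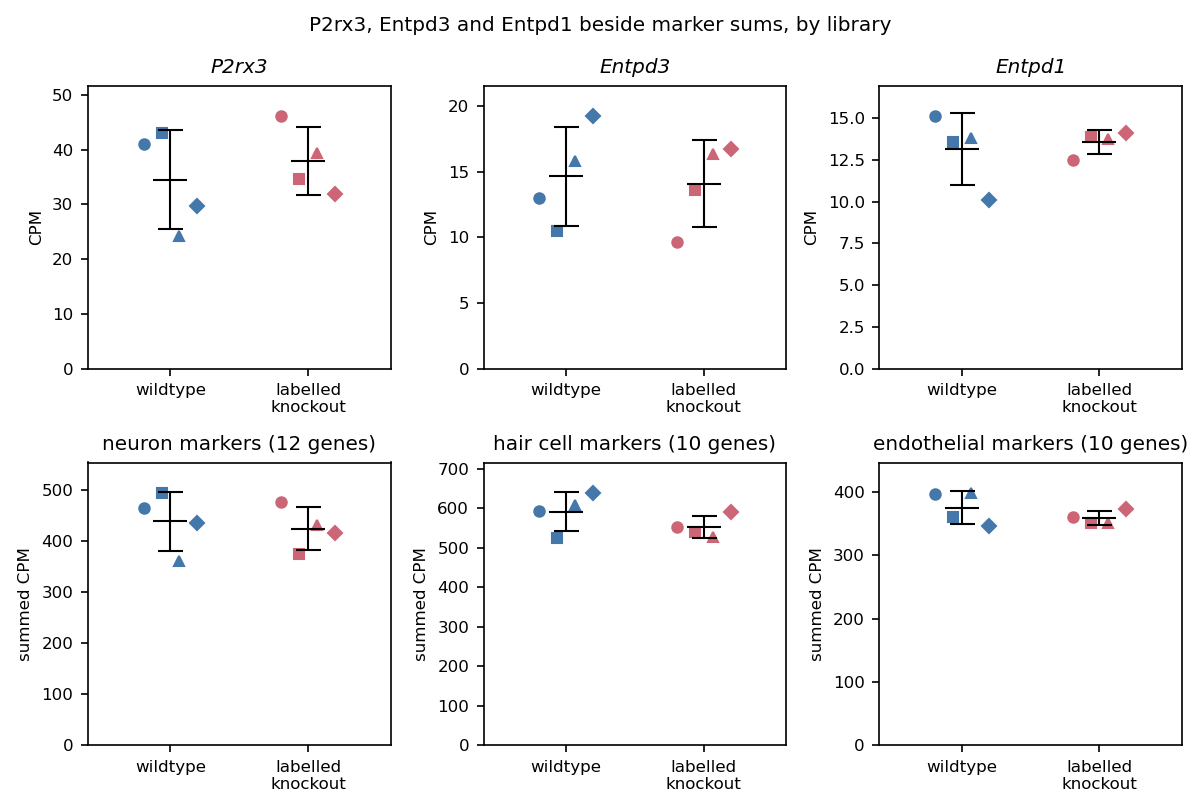
The upper row gives CPM of P2rx3, Entpd3 and Entpd1 and the lower row summed CPM of 12 neuron, 10 hair cell and 10 endothelial markers, each y axis from 0, with circle, square, triangle and diamond for libraries 1 to 4, blue for wildtype and red for labelled knockout, and bars for mean and SD. Wildtype library 3 (triangle) is lowest for P2rx3 and for the neuron sum, and wildtype library 4 (diamond) is lowest for Entpd1 and for the endothelial sum. Syt1 has the highest level in the neuron sum and Emcn in the endothelial sum.

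P2rx2, whose product forms channels alone or together with that of P2rx3, had 7.84, 5.62, 7.20 and 8.48 CPM in wildtype libraries 1 to 4 and 6.24, 6.36, 6.55 and 8.32 CPM in those labelled knockout. Library 4 was the highest of each group. The log2 fold change of P2rx2 was -0.08 ± 0.15 (SE; 95% interval -0.40 to 0.24), and with 1 library left out it ran from -0.19 (without wildtype library 2) to -0.0026 (without wildtype library 4). P2rx7, a receptor that opens at high ATP, had 26.1, 30.7, 26.4 and 28.1 CPM in wildtype and 25.8, 28.8, 25.0 and 22.8 CPM in libraries 1 to 4 labelled knockout. Its libraries lay close together, with a coefficient of variation of 7.59% in wildtype, and the log2 fold change was -0.12 ± 0.08 (SE; 95% interval -0.30 to 0.06). With 1 library left out the log2 fold change of P2rx7 ran from -0.18 (without knockout-labelled library 2) to -0.070 (without wildtype library 2 or knockout-labelled library 4), and without the wildtype libraries 1 and 3 it was -0.20. It passed in none of these fits.

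On a per-kilobase scale, P2rx3 made up 43.5 to 57.8% of the 7 P2X genes in wildtype and 51.3 to 60.3% in the knockout-labelled libraries. P2rx7 followed with 16.5 to 22.2% and 15.8 to 20.4%, then P2rx2 with 8.18 to 14.6% and 8.85 to 14.5%, and P2rx4 with 9.41 to 13.5% and 9.76 to 11.0%. The groups overlapped in each share. None of the 7 P2X genes passed over all genes, with 3 above 0 and 4 below.

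ATP release was represented by Panx1, which encodes the pannexin 1 channel. Panx1 had 25.2, 23.6, 23.7 and 23.2 CPM in wildtype libraries 1 to 4 and 23.7, 21.0, 21.4 and 21.9 CPM in those labelled knockout. In the second group 3 libraries lay below every wildtype library, and library 1 fell among the wildtype values. The spread was the smallest of the 9 genes in wildtype, with a coefficient of variation of 3.67% where counting error gives 3.34%. The log2 fold change was -0.12 ± 0.06 (SE; 95% interval -0.26 to 0.02), with an unadjusted p of 0.0851 and an adjusted p of 0.648 (edgeR, Benjamini-Hochberg).

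Of 13 tested genes for ATP release channels and transporters, Panx1 included, 0 passed over all genes, with 5 above 0 and 8 below. Gjb2, which encodes connexin 26, had the highest level per kilobase of them, 184 CPM per kilobase in wildtype, and stood at 443 ± 36.7 CPM in wildtype against 461 ± 19.1 CPM with the knockout label (mean ± SD, n = 4 each; log2 fold change 0.06 ± 0.07). Abcc6, a transporter linked to ATP efflux, had the smallest unadjusted p of the list, 0.0415, at 0.47 and 0.73 CPM (log2 fold change 0.66 ± 0.29, edgeR adjusted p = 0.647).

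Breakdown of nucleotides was followed with Entpd1 and Entpd3, whose enzymes hydrolyse ATP and ADP outside the cell. Entpd1, also known as CD39 and carried by endothelial and immune cells, had 15.1, 13.5, 13.8 and 10.1 CPM in wildtype libraries 1 to 4 and 12.5, 13.9, 13.8 and 14.1 CPM in those labelled knockout. Wildtype library 4 was the lowest of the 8. Its log2 fold change was 0.04 ± 0.11 (SE; 95% interval -0.20 to 0.29), and with 1 library left out it ran from -0.06 (without wildtype library 4) to 0.12 (without wildtype library 1). In that library the sum of 10 endothelial markers (346 CPM, against 351 to 399 CPM in the other libraries) and that of 12 macrophage markers (82.8 CPM, against 83.5 to 107 CPM) were also the lowest. Knockout-labelled libraries 2 and 3 had endothelial sums of 351 CPM each and library 3 a macrophage sum of 83.5 CPM, close to those of wildtype library 4, yet Entpd1 stood at 13.9 and 13.8 CPM in them. Knockout-labelled library 1, the lowest of its group in Entpd1, had the second highest of both sums in that group. Emcn had the highest level of the 10 endothelial markers, with 111 CPM in wildtype library 4 and 145 CPM in library 4 labelled knockout. It was the 1 endothelial marker with a log2 fold change above 0 (0.20), with 9 below. The order of the libraries in the endothelial sum therefore depends on Emcn. The part of these cells in the Entpd1 values was not tested.

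Entpd3 had 12.96, 10.5, 15.8 and 19.2 CPM in wildtype libraries 1 to 4 and 9.60, 13.6, 16.4 and 16.7 CPM in those labelled knockout. The highest library held 1.83-fold the lowest within wildtype and 1.74-fold within the other group, the widest range of the 9 tested genes in both groups. The log2 fold change was -0.05 ± 0.19 (SE; 95% interval -0.47 to 0.37), and it turned to 0.11 without wildtype library 4 and to 0.091 without knockout-labelled library 1, and was -0.18 without wildtype library 2. The 10 hair cell markers summed to 593, 524, 609 and 639 CPM in wildtype and 552, 540.4, 526 and 591 CPM in libraries 1 to 4 labelled knockout. Wildtype library 2 was the lowest and wildtype library 4 the highest of their group in Entpd3, in P2rx2 and in the hair cell sum, and library 4 labelled knockout was the highest of its group in all of these. The other knockout-labelled libraries did not keep this order: library 1 was the lowest of its group in Entpd3 and P2rx2 but second highest in the hair cell sum, and library 3 was the lowest in that sum but second highest in Entpd3 and P2rx2. The part of the hair cell content was not tested.

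The gene past the threshold among 12 ectonucleotidases was Enpp3, a membrane-bound pyrophosphatase that also cleaves ATP. Enpp3 had 9.001, 7.41, 8.61 and 7.86 CPM in wildtype libraries 1 to 4 and 13.6, 12.6, 11.8 and 12.8 CPM in those labelled knockout, without overlap. It rose with a log2 fold change of 0.63 ± 0.09 (SE) and an adjusted p of 0.0285 (edgeR, Benjamini-Hochberg). In the authors' deposited DESeq2 table its adjusted p was 5.73e-06, the same value as DESeq2 gave here. With any 1 of the 8 libraries left out, Enpp3 did not pass (edgeR, Benjamini-Hochberg adjusted p between 0.0571 and 0.172), with log2 fold changes between 0.58 and 0.67. Entpd6, named after its values were seen, also had no overlap, narrowly, at 22.10 to 23.69 CPM in wildtype and 19.90 to 22.09 CPM with the knockout label. It did not pass (edgeR: log2 fold change -0.12 ± 0.06, unadjusted p = 0.0862). Over all tested genes, 3.69% had no overlap. Per kilobase, Enpp3 was 2.25 to 2.44% of the 12 ectonucleotidases in wildtype and 3.39 to 4.305% in the knockout-labelled libraries. Enpp2, which encodes autotaxin, a secreted enzyme that mainly makes a lipid mediator, was 47.7 to 52.1% and 44.9 to 48.1%. Entpd3 was 5.33 to 8.80% and 4.88 to 8.01%, and Entpd1 3.11 to 4.63% and 4.02 to 4.77%.

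Per kilobase of exon in wildtype, the 10 genes ordered from Ano1 (20.5 ± 1.31 CPM per kilobase) and P2rx3 (12.4 ± 3.23) to P2rx7 (4.66 ± 0.35), Panx1 (3.97 ± 0.15), Entpd3 (3.89 ± 1.00), P2ry1 (3.89 ± 0.59), P2rx2 (2.83 ± 0.48), Entpd1 (2.35 ± 0.38), P2ry2 (2.19 ± 0.28) and P2ry4 (0.0059 ± 0.0048; SD, n = 4). Ano1 lay above P2rx3, P2rx3 above P2rx7, and P2rx7 above Panx1 in 8 of 8 libraries. Panx1, Entpd3 and P2ry1 did not differ beyond their spread, with Panx1 above Entpd3 in 3 of 8 libraries and Entpd3 above P2ry1 in 6 of 8. P2ry1 lay above P2rx2 in 8 of 8 libraries, P2rx2 above Entpd1 in 6 of 8 and Entpd1 above P2ry2 in 7 of 8. Among all tested genes with a known length, Ano1 stood above 88.2% in this level, P2rx3 above 78.0% and P2ry2 above 34.0%. Lengths come from an annotation of GRCm38, and with its basic transcript set Ano1 read 27.8 and P2rx3 17.4 CPM per kilobase, while Panx1 and Entpd3 changed places.

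**Figure D3:**
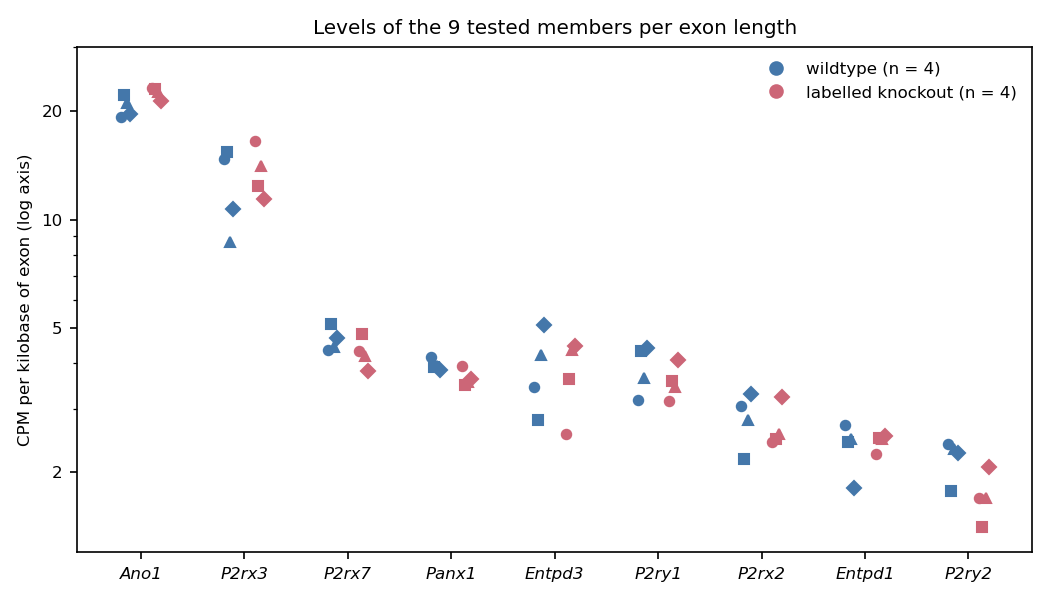
CPM per kilobase of union exon length (log axis) of the 9 tested genes in each library, with circle, square, triangle and diamond for libraries 1 to 4. Ano1 lies between 19.2 and 23.1 in the 8 libraries and P2rx3 between 8.68 and 16.5, and the remaining 7 genes lie between 1.41 and 5.14.

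Downstream of the receptors, genes of Gq coupling and calcium stores were measured from a list chosen for role. Of 16 tested genes, 0 passed over all genes, with 3 above 0 and 13 below and a median log2 fold change of -0.04. Gna11, a Gq-class alpha subunit, had the smallest unadjusted p, 0.134 by edgeR, with a log2 fold change of -0.09 ± 0.05. Atp2a2, the pump that refills the stores, had the highest level per kilobase of the list, 51.5 CPM per kilobase in wildtype, and stood at 313 ± 11.9 and 311 ± 17.3 CPM (mean ± SD, n = 4 each; log2 fold change -0.01 ± 0.06).

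Transporters and channels that set up or follow the chloride efflux gave 0 of 10 past the threshold. Slc12a2, the cotransporter that loads cells with chloride, had the highest level per kilobase of these, 87.1 CPM per kilobase in wildtype, and stood at 951 ± 78.1 and 875 ± 52.8 CPM (mean ± SD, n = 4 each; log2 fold change -0.12 ± 0.07). The cotransporter gene Slc12a4 had -0.11 ± 0.07. None of 3 tested adenosine receptor genes passed, with Adora2a at 2.93 ± 0.26 and 2.64 ± 0.13 CPM (log2 fold change -0.15 ± 0.14), and none of 5 tested genes of adenosine uptake and removal, with the nucleoside transporter gene Slc29a1 at -0.05 ± 0.06. Across all 9 role lists, 79 genes stood beside the 10 members and 73 were tested. Of these, 1 rose (Enpp3) and 0 fell, 3 had an unadjusted p under 0.05 (Enpp3, Abcc6 and, singled out after its values were seen, Ano4 at 0.23 ± 0.10), 29 lay above 0 and 44 below, and their median log2 fold change was -0.03. Over all tested genes 0.0923% passed, 7.55% had an unadjusted p under 0.05 by edgeR, and the median was 1.23e-06. Besides Enpp3 (higher), the groups did not overlap for Entpd6, Lrrc8a and Itpr2 (lower), named after their values were seen. The share without overlap over all tested genes was 3.69%.

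**Figure D4:**
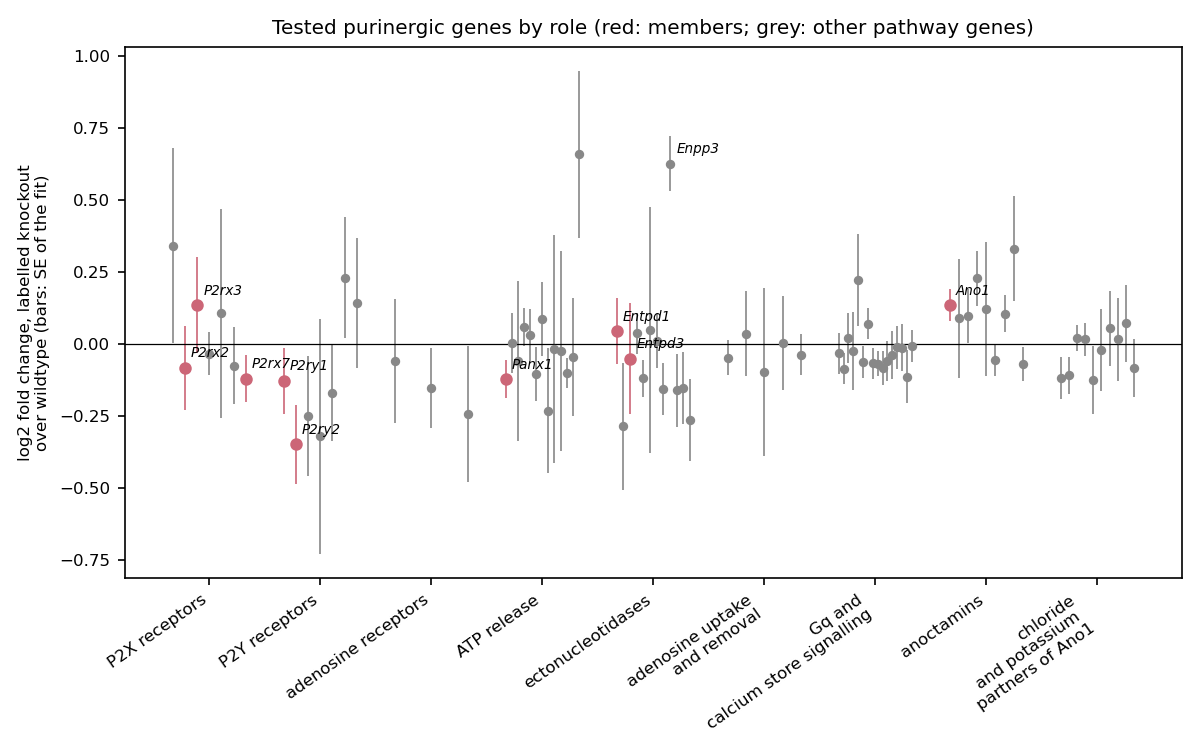
Log2 fold change of the knockout-labelled libraries over wildtype (y axis; bars give the SE of the fit) for each tested gene, grouped by role on the x axis, with the purinergic members in red and other pathway genes in grey. Enpp3 at 0.63 is the gene past the threshold, and the 9 members lie between -0.35 and 0.13.

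Reads of overlapping genes could touch 3 of the 10 genes, since the sources used here do not say whether counting used strand. In the GRCm38 annotation, exons of P2ry1 share 992 bases with Gm37035 on the opposite strand, those of P2rx3 share 51 bases with Ssrp1 on the opposite strand, and those of P2rx7 share 119 bases with Mir8115 on the same strand. Mir8115 had 0 counts in all 8 libraries, and Ssrp1 had between 112 and 129 CPM. Gm37035, with the largest overlap, was not among the counted genes, so its level is not known here. For the other 7 genes no exon overlap was found.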

How the data were processed

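Total RNA depleted of ribosomal RNA was sequenced (NEBNext Ultra II, per the labels' protocols). Per the submitters' processing notes, the build was GRCm39 and the tools were HISAT2 2.2.1, featureCounts, DESeq2, cutadapt 4.3 and FastQC 0.12.1. The sources used here do not give the annotation or the strand setting. Per the file headers, the deposited tables hold raw counts for each gene and library. Another deposited table holds the authors' DESeq2 result, as a log2 fold change with its SE and the adjusted p-value. For the tested members and Enpp3 its values equal those of DESeq2 run here, so it is not a separate result.

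Columns were assigned by the library names in the labels, and groups by title. Of 41079 genes, 20581 passed edgeR's filterByExpr (minimum count 10). CPM values use TMM factors. Genes were tested with the quasi-likelihood test of edgeR 4.0.16 in R 4.3.3, with genotype as the factor, all 8 libraries and Benjamini-Hochberg adjustment at 0.05; alternatives used DESeq2 1.42.0 and limma-voom (limma 3.58.1). The fit was tested on simulated data. Intervals use the SE and the moderated degrees of freedom. Exon lengths come from GENCODE vM21 (GRCm38), by symbol. Replicates differed by more than sampling noise in each pair within a group (chi-square per degree of freedom at least 10.7).

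The members and lists were chosen with earlier results of these data known. Genes named are the members, Prox1 and Emx2, from each role list the genes past the threshold, that with the smallest p and that with the highest CPM, and the 5 genes closest to Ano1 among those with a mean of at least 1 CPM. Family shares and marker genes named beyond this were chosen after their values were seen. Emx2, the driver locus, had 16.2 CPM in wildtype against 19.7 CPM with the knockout label. Marker sums not given in the text were, first in wildtype and then with the knockout label, 882 to 987 and 880.4 to 965 CPM for glia and 1774 to 4058 and 1425 to 2578 CPM for red cells.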

Additional observations from a re-analysis of the deposited data

Results flagged for a closer look

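In 40 groups of 4 libraries (20 named genes in each genotype), 3 held a library whose gap to its nearest neighbour was over 0.829 of the group's range, and chance gives about 1 in 20. P2rx2 was highest in library 4 labelled knockout, at 8.32 CPM against 6.24 to 6.55 CPM in the other libraries of that group (gap 0.851 of the range). Gjb2 was lowest in library 3 labelled knockout, at 433 CPM against 468 to 474 CPM (0.852). Atp2a2 was lowest in wildtype library 1, at 295 CPM against 317 to 320.5 CPM (0.851).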

How the results depend on the processing

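Each of the 9 tested members stayed short of the threshold under all 20 alternatives. Those that change only the adjusted p threshold reuse the main fit. Their fold changes could not turn, and the stricter threshold could not add a gene. Of 180 values for members, 176 kept their direction, and 4 turned: P2rx3 (-0.0025 without wildtype library 3; -0.0025 to 0.26 with 1 library left out), Entpd1 (-0.062 without wildtype library 4; -0.062 to 0.12) and Entpd3 (0.11 without wildtype library 4, 0.091 without knockout-labelled library 1; -0.18 to 0.11). Ano1 ran from 0.10 to 0.17 and P2ry2 from -0.45 to -0.23. Atp2a2 turned to 0.0071 with upper quartile scaling, 0.0047 with library totals, 0.0053 with the stricter filter (50 counts in 4 libraries), 0.0018 and 0.0028 without wildtype libraries 3 and 4, and 0.012 and 0.013 without knockout-labelled libraries 2 and 3 (-0.041 to 0.013 with 1 library left out), and Slc29a1 to 0.046 without the wildtype libraries 1 and 3. Over all genes, 7 were higher and 12 lower. The higher count was 4 with library totals, 12 without a filter, 36 with DESeq2, 3 with the replicate block, 2 without the wildtype libraries 1 and 3, 2 at an adjusted p of 0.01, and 2 to 7 with 1 library left out. The lower count was 24 without a filter, 50 with DESeq2, 7 without the wildtype libraries 1 and 3, and 8 to 20 with 1 library left out. The 1 other pathway gene called, Enpp3, was lost with the replicate block, without the wildtype libraries 1 and 3 and at an adjusted p of 0.01 (0 genes each), and in all 8 fits with 1 library left out (0 to 0). The cause was not tested. Same-numbered libraries did not deviate together (correlations of 0.11, 0.21, -0.28 and -0.14 for numbers 1 to 4), so the numbers are not taken as pairs, and not every library correlated best with its own number. Depth limits P2ry4, which no library counted more than 2 times.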

Other observations

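Calhm1, which encodes an ATP-permeable channel of taste cells, was left out by the filter on low counts and was singled out after its values were seen. It had 4, 9, 9 and 7 counts in wildtype libraries 1 to 4 and 1, 1, 2 and 1 counts in libraries 1 to 4 labelled knockout, 29 against 5 in all, without overlap between the groups on the CPM scale. Without a filter, edgeR gave a log2 fold change of -2.23 ± 0.69 (SE; unadjusted p = 0.00398, Benjamini-Hochberg adjusted p = 0.420), so it did not pass. Over all tested genes, a set without Calhm1, 3.69% had no overlap. Each library labelled knockout was also less deep than each wildtype library.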
